A study of Mus musculus with 7 samples.

Results

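Noto, Shh, Chrd, Nog, Foxa2 and Foxj1, genes known from the notochord and the node of the early embryo, were read from an RNA-seq table of 25965 rows, and all 6 were listed and passed the filter on low values, as did 13997 rows in all. Membership is by gene name, with no threshold on a value. The tissue, labelled postsomitic mesoderm, came from female mouse embryos of the FVB/N strain at E9.5 and was the posterior piece lying roughly a somite length behind the last somite that could be seen. The series set 4 libraries of genotype Smchd1 MommeD1/MommeD1, in which both copies carry the MommeD1 null allele (called null), against 3 libraries that were Smchd1 +/+ (called wild-type). The labels list 4 null samples, whereas the design text speaks of 3. Whether each library is a separate embryo is not given in the sources used here, and p-values therefore measure the spread between these libraries. Smchd1 is an SMC-type chromatin protein known for its role in X-chromosome inactivation. The column names give the genotype but no sample number, so libraries are lettered within each group.

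The notochord is a midline rod of mesoderm that signals to the neural tube, somites and gut, and in the tail bud it is extended by cells of the notochordal plate and the node-derived posterior notochord. Noto and Foxa2 encode transcription factors of this lineage, Shh its secreted hedgehog signal, and Chrd and Nog secreted antagonists of bone morphogenetic proteins (BMPs). Foxj1 encodes a forkhead factor that switches on genes of motile cilia, which in the mouse node drive the leftward flow. Shh and Foxa2 are also transcribed in hindgut endoderm and in the floor plate of the neural tube, both of which the dissected piece could hold. The measure is bulk RNA, in which more cells of a type and more RNA per cell cannot be told apart.

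The libraries held 22137823 to 23847381 reads in listed genes in null and 19622596 to 23548995 in wild-type tissue. The deposited values are log2 RPM (reads per 1000000 reads) of a larger library denominator, of which listed genes made up 34.3% to 37.4% in null and 28.8% to 37.9% in wild-type libraries. The median log2 change of all 13997 genes was 0.16 on that scale. Values relative to the median autosomal gene of each library, called centred, had a median change of -0.03. Smchd1 had 1922 to 2372 reads in null against 5572 to 6552 in wild-type libraries and fell by 1.48 on the log2 scale (limma adjusted p = 0.000238), and by 1.67 after centring (adjusted p = 9.54e-05). Wild-type library B stood apart in tail bud genes, with 200 reads of Cyp26a1, which encodes a retinoic acid-degrading enzyme, against 2497 to 3100 in null and 2033 and 2391 in the other wild-type libraries.

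All 6 genes had a higher mean in null than in wild-type tissue, and none passed the test over all genes. On the deposited scale the log2 change (null over wild-type) ranged from 0.56 for Shh to 1.23 for Noto, with a median of 0.79. On the centred scale it ranged from 0.36 for Shh to 1.04 for Noto, with a median of 0.60. By limma 0 of the 6 had an adjusted p under 0.05 on either scale, where 0.0429% of all genes tested did so as deposited and 0.0572% after centring. At an unadjusted p under 0.05, 5 of the 6 were higher as deposited, against 13.9% of all genes, and 4 of the 6 after centring, against 7.29%. The null libraries all lay above the wild-type libraries in 4 of the 6 genes as deposited (Noto, Chrd, Nog and Foxa2), against 7.02% of all genes. After centring this held for 3 of the 6 (Noto, Chrd and Foxa2), against 6.51%. Log2 changes above 0 were found in 92.7% of all genes as deposited and 42.5% after centring.

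The promoter windows of Noto, Chrd and Foxa2 are shown because only these 3 of the 6 members had a window in the promoter set used here. They are also the genes whose groups did not overlap on either scale, which played no part in the choice. The windows are the RefSeq windows of GRCm38.p6 (mm10), from 250 bases before to 50 after the annotated start, with every CG dinucleotide in capitals. The set held no window for Shh, Nog or Foxj1.
Noto, chr6:85423636-85423935, plus strand: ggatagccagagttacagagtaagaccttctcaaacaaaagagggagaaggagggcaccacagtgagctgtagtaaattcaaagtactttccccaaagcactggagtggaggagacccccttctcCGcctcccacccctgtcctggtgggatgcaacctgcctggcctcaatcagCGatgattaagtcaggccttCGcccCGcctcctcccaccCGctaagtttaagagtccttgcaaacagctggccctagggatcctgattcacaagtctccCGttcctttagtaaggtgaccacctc
Chrd, chr16:20732877-20733176, plus strand: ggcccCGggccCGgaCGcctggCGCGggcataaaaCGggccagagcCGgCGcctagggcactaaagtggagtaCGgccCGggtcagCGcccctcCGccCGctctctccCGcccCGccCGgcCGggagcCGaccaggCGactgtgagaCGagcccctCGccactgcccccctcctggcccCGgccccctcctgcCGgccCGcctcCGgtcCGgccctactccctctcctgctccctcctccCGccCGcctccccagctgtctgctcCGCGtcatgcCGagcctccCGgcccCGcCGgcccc
Foxa2, chr2:148046920-148047219, minus strand, the outermost of 3 windows: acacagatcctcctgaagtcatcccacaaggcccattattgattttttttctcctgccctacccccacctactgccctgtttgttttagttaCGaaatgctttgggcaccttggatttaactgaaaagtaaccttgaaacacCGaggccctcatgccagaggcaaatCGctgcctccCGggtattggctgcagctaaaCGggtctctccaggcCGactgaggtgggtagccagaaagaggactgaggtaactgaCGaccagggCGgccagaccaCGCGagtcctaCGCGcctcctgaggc
The Noto window held 6 CG dinucleotides at a G+C content of 54.0%, the Foxa2 window 12 at 54.3% and the Chrd window 34 at 78.3%. The median over 32851 windows was 7, and 93.0% of windows had no more than the Chrd window. The Noto and Foxa2 windows were thus alike in G+C content, and the Chrd window was richer. None of the 5 windows of these 3 genes held TGTTTAC (forkhead), TCACACC (T-box), GGAATG (TEAD) or GGGTGGT (GLI) on either strand. These letters are found in 3.65%, 3.98%, 14.7% and 4.61% of all windows in the same order, and with no match in these windows no overlap between motifs arises. The absence of a match says only that these letters are not in these windows.

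Noto, a homeobox gene transcribed in the node and the posterior notochord, showed the largest difference of the 6 genes on both scales. It spans chr6:85423886-85429602 on the plus strand in mm10. Its level was 5.21, 9.33, 5.86 and 5.56 RPM in null libraries A to D, against 3.09, 2.72 and 2.32 RPM in wild-type libraries A to C, from 347 to 628 reads against 158 to 192. The groups did not overlap, and null library B was the highest of all 7. The mean was 6.49 ± 1.91 RPM in null (SD, n = 4) and 2.71 ± 0.39 RPM in wild-type tissue (SD, n = 3). The log2 change was 1.23 (SE 0.23, limma adjusted p = 0.0926), a 2.34-fold difference, with an exact two-sided permutation p = 0.0286 over 35 splits, the smallest that this design allows. The centred change was 1.04 (SE 0.21, limma adjusted p = 0.207), with the same exact permutation p = 0.0286. Among all 13997 genes its unadjusted limma p ranked 18 as deposited and 64 after centring. On the deposited scale limma's adjusted p was 0.514 when wild-type library C was left out and 0.000414 when wild-type library B was.

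Foxa2, which encodes a forkhead transcription factor of the node, notochord, floor plate and definitive endoderm, had the smallest SD within each group on the deposited scale. It spans chr2:148042877-148046969 on the minus strand. Its level was 5.30, 5.72, 5.27 and 6.68 RPM in null libraries A to D, against 3.61, 3.13 and 3.03 RPM in wild-type libraries A to C, from 312 to 428 reads against 205 to 224. All null libraries lay above all wild-type libraries, with the highest value in null library D. The mean was 5.74 ± 0.66 RPM in null (SD, n = 4) and 3.26 ± 0.31 RPM in wild-type tissue (SD, n = 3). The log2 change was 0.82 (SE 0.19, limma adjusted p = 0.146), and the centred change was 0.62 (SE 0.12, limma adjusted p = 0.207). The exact permutation p was 0.0286 on both scales.

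Chrd, which encodes chordin, a BMP-binding antagonist made by the node and notochord, was 2.00-fold higher on the deposited scale. It spans chr16:20733127-20742384 on the plus strand. Its level was 6.06, 7.60, 7.08 and 9.34 RPM in null libraries A to D, against 4.16, 3.07 and 4.03 RPM in wild-type libraries A to C, from 407 to 598 reads against 201 to 275. The groups did not overlap, and null library D was the highest. The mean was 7.52 ± 1.37 RPM in null (SD, n = 4) and 3.75 ± 0.59 RPM in wild-type tissue (SD, n = 3). The log2 change was 1.00 (SE 0.20, limma adjusted p = 0.107), and the centred change was 0.81 (SE 0.16, limma adjusted p = 0.207), with an exact permutation p = 0.0286 on both scales. Exons of Chrd overlap those of Thpo, the thrombopoietin gene on the opposite strand, over 239 bp in GENCODE M21, and the strand setting of the counting is not given in the sources used here. Thpo had 117, 199, 133 and 170 reads in null against 79, 59 and 88 in wild-type libraries, so some reads may be counted in both genes and the values of Chrd are uncertain to that extent.

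Nog, which encodes noggin, the other secreted BMP antagonist of the axial midline, separated the groups only as deposited. It spans chr11:89300638-89302559 on the minus strand. Its level was 4.24, 5.08, 3.58 and 6.26 RPM in null libraries A to D, against 2.58, 3.16 and 2.77 RPM in wild-type libraries A to C, from 212 to 401 reads against 160 to 207. The lowest null library, C, was close to the highest wild-type library, B. The mean was 4.79 ± 1.16 RPM in null (SD, n = 4) and 2.84 ± 0.30 RPM in wild-type tissue (SD, n = 3). The log2 change was 0.73 (SE 0.23, limma adjusted p = 0.226, exact permutation p = 0.0571). After centring, null library C at -2.35 lay below wild-type library B at -2.20, and the change was 0.54 (SE 0.23, limma adjusted p = 0.352, exact permutation p = 0.114), or 0.35 without wild-type library A.

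Shh, the hedgehog ligand of the notochord, floor plate and gut endoderm, overlapped between the groups. It spans chr5:28456815-28467101 on the minus strand. Its level was 14.3, 15.6, 15.3 and 9.80 RPM in null libraries A to D, against 11.5, 7.58 and 8.94 RPM in wild-type libraries A to C, from 628 to 1050 reads against 496 to 713. Null libraries A to C lay above every wild-type library, whereas null library D lay below wild-type library A. The mean was 13.7 ± 2.69 RPM in null (SD, n = 4) and 9.34 ± 1.99 RPM in wild-type tissue (SD, n = 3). The log2 change was 0.56 (SE 0.20, limma adjusted p = 0.267, exact permutation p = 0.0857), and the centred change was 0.36 (SE 0.18, limma adjusted p = 0.37, exact permutation p = 0.143). Without null library D the changes were 0.71 and 0.54, with the adjusted p at 0.238 and 0.322. Without wild-type library A, Shh passed limma's test as deposited (adjusted p = 0.0332), as did Noto, Chrd and Foxa2, in a fit that called 30.3% of all genes higher. GENCODE M21 also places antisense transcripts across the Shh gene, 9530036O11Rik and Gm26894, which share 446 and 361 bp of exon with it and are not rows of the table under these names.

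Foxj1, the regulator of motile cilia, had the largest SD of log2 values within both groups. It spans chr11:116330704-116335399 on the minus strand. Its level was 1.74, 4.34, 3.01 and 4.65 RPM in null libraries A to D, against 2.67, 1.15 and 2.18 RPM in wild-type libraries A to C, from 117 to 298 reads against 75 to 166. Null library A lay below wild-type libraries A and C, and wild-type library B was the lowest of all 7. The mean was 3.44 ± 1.34 RPM in null (SD, n = 4) and 2.00 ± 0.78 RPM in wild-type tissue (SD, n = 3). The log2 change was 0.77 (SE 0.37, limma adjusted p = 0.367, exact permutation p = 0.2), and the centred change was 0.57 (SE 0.37, limma adjusted p = 0.432, exact permutation p = 0.2). Without wild-type library B the change was 0.41 (centred 0.26), and without null library A it was 1.06 (centred 0.84).

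**Figure D1:**
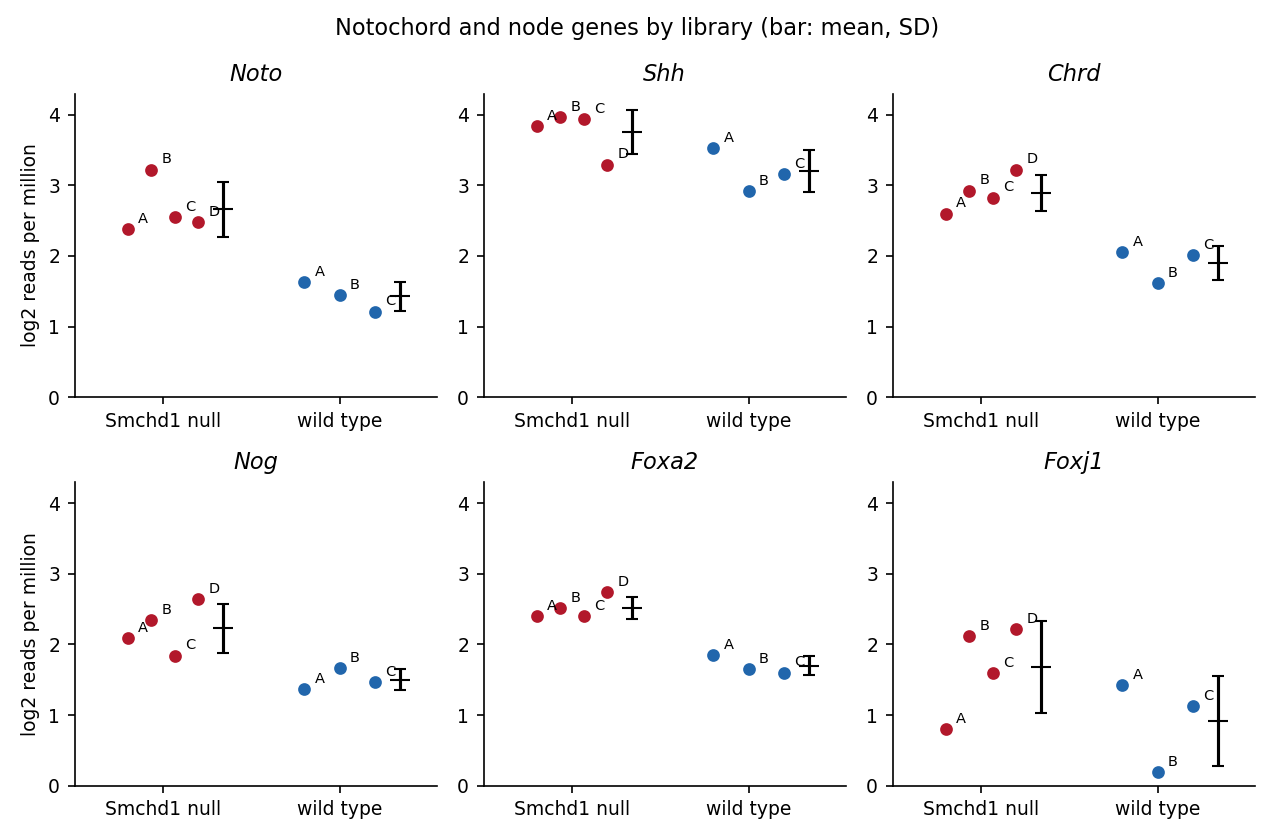
Level of each gene as log2 RPM in every library, with Smchd1-null libraries (red, letters A to D) left of wild-type libraries (blue, letters A to C) and black bars for the mean and SD. The groups are apart for Noto, Chrd, Nog and Foxa2 and overlap for Shh and Foxj1.

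**Figure D2:**
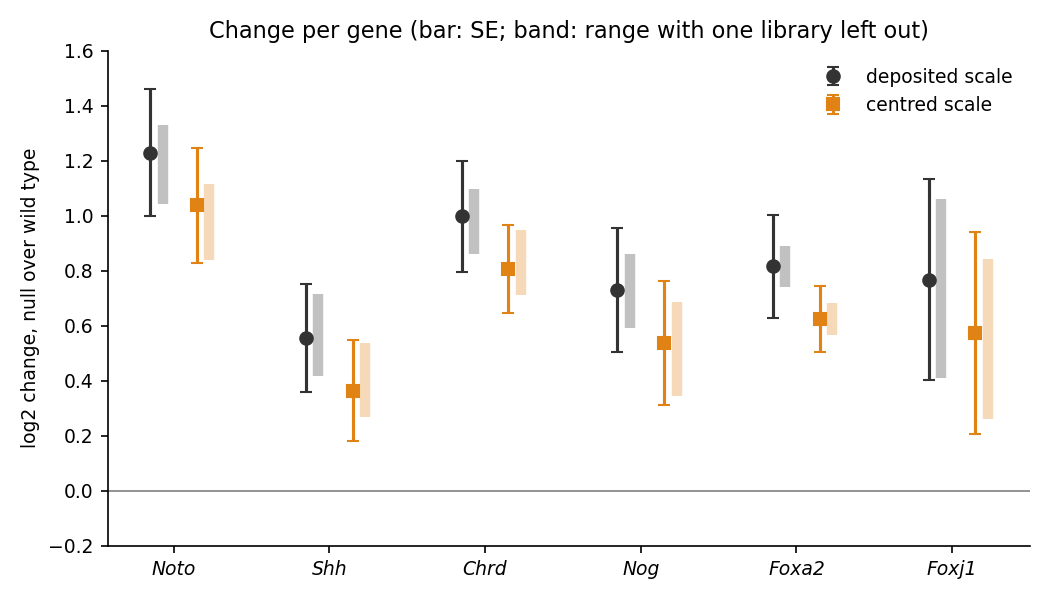
Log2 change of null over wild-type per gene on the deposited scale (black) and the centred scale (orange), with SE bars, and bands for the range when each library is left out in turn. All estimates lie above 0, from 0.56 for Shh to 1.23 for Noto as deposited and from 0.36 to 1.04 after centring.

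Levels were compared between the genes per exon length, as RPM per kilobase of merged GENCODE M21 exons. In null tissue Shh had 4.83 ± 0.94, Noto 4.05 ± 1.20, Nog 2.83 ± 0.68, Foxa2 2.42 ± 0.28, Foxj1 1.31 ± 0.51 and Chrd 1.20 ± 0.22 (SD, n = 4). In wild-type tissue Shh had 3.28 ± 0.70, Noto 1.69 ± 0.24, Nog 1.67 ± 0.18, Foxa2 1.37 ± 0.13, Foxj1 0.76 ± 0.30 and Chrd 0.60 ± 0.09 (SD, n = 3). The order of the means was the same in both groups. In null tissue the ranges of Shh and Noto, of Nog and Foxa2, and of Foxj1 and Chrd overlapped. The range of Nog, 2.11 to 3.69, also overlapped those of Noto and Shh, and in null library D Nog was above both. In wild-type tissue Shh lay above Noto in every library, whereas Noto and Nog were at nearly the same level.

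**Figure D3:**
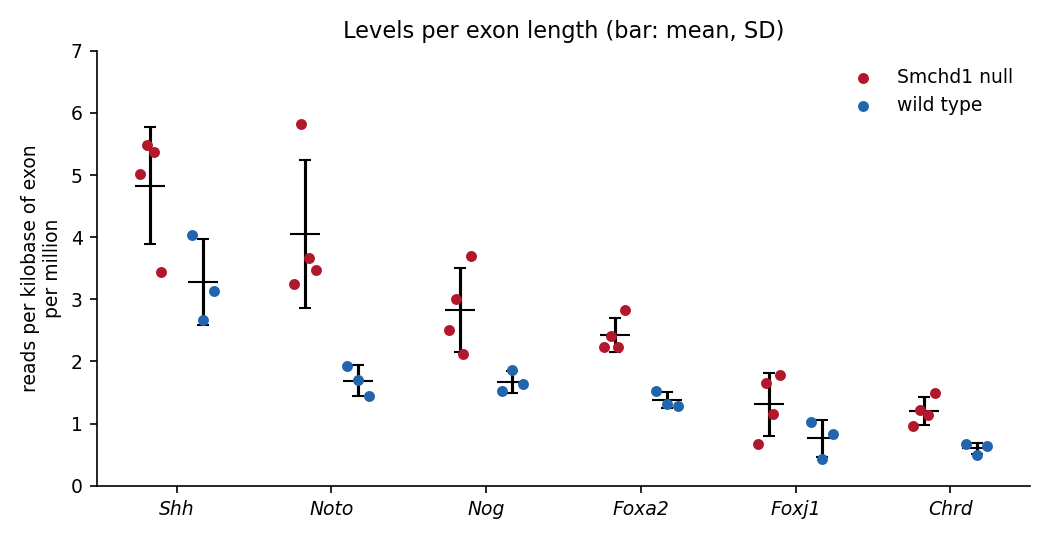
Level per exon length (RPM per kilobase of exon, linear axis) for the 6 genes in order of their mean in null tissue, with null libraries (red) left of wild-type libraries (blue) and black bars for the mean and SD. Shh is highest at 4.83 in null and 3.28 in wild-type tissue, and Chrd lowest at 1.20 and 0.60.

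Whether the 6 genes differed in their response was tested on the log2 ratio of each pair within a library, which no scaling of libraries can move. In 14 of 15 pairs the groups overlapped. The exception was Noto over Shh, at -1.10 ± 0.37 in null (SD, n = 4) and -1.77 ± 0.26 in wild-type tissue (SD, n = 3), a difference of 0.67. Its libraries were at -1.45, -0.74, -1.38 and -0.82 in null against -1.89, -1.48 and -1.95 in wild-type tissue, with only a narrow gap between null library A and wild-type library B. The exact two-sided permutation p was 0.0571, and 0.643 when adjusted over the 15 pairs. Noto over Nog differed by 0.50 (exact permutation p = 0.114) and Chrd over Shh by 0.44 (exact permutation p = 0.171). The smallest differences were those of Foxj1 over Nog, at 0.04, and of Foxa2 over Foxj1, at 0.05. No pair was thus shown to respond differently. The smallest exact permutation p of this design is 0.0286 before adjustment. A single pair could therefore not pass 0.05 when adjusted over the 15 pairs, and the adjusted test cannot decide for any pair by itself.

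The column names end in 18, 21 or 22, numbers that the sources used here do not explain, and each number occurs in both groups. Null library A and wild-type library B carry 18, null library D and wild-type library C carry 21, and null libraries B and C and wild-type library A carry 22. Within a number, null minus wild-type was above 0 in 18 of 18 comparisons of a gene as deposited and in 17 of 18 after centring. Over all libraries, 92.7% of all genes had a change above 0 as deposited and 42.5% after centring. The share of all genes within a number was not computed, so these counts have no matching background. Chrd was the most even of the genes after centring, at 0.79 within 18, 0.79 within 21 and 0.87 within 22. Foxa2 differed by 0.56, 0.72 and 0.65, and Noto by 0.74, 0.85 and 1.31. Nog differed by 0.23, 0.76 and 0.77, and Foxj1 by 0.41, 0.67 and 0.48. Shh was the exception, at 0.72 within 18, -0.28 within 21 and 0.48 within 22. With the last number as a term in limma on the deposited scale, 4 of the 6 genes rose, with an adjusted p of 9.93e-06 for Noto, 0.000123 for Chrd, 0.00569 for Foxa2 and 0.0164 for Nog, where 4.99% of all genes also did. After centring 0 passed with that term, with an adjusted p of 0.0913 for Chrd and 0.132 for Noto. Of the first numbers within the column names, also unexplained, only 4180 occurs in both groups, in null library D and wild-type libraries B and C. Within it the centred difference was 0.77 for Noto, 1.03 for Chrd, 0.74 for Foxa2, 0.70 for Nog, 1.18 for Foxj1 and -0.13 for Shh.

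**Figure D4:**
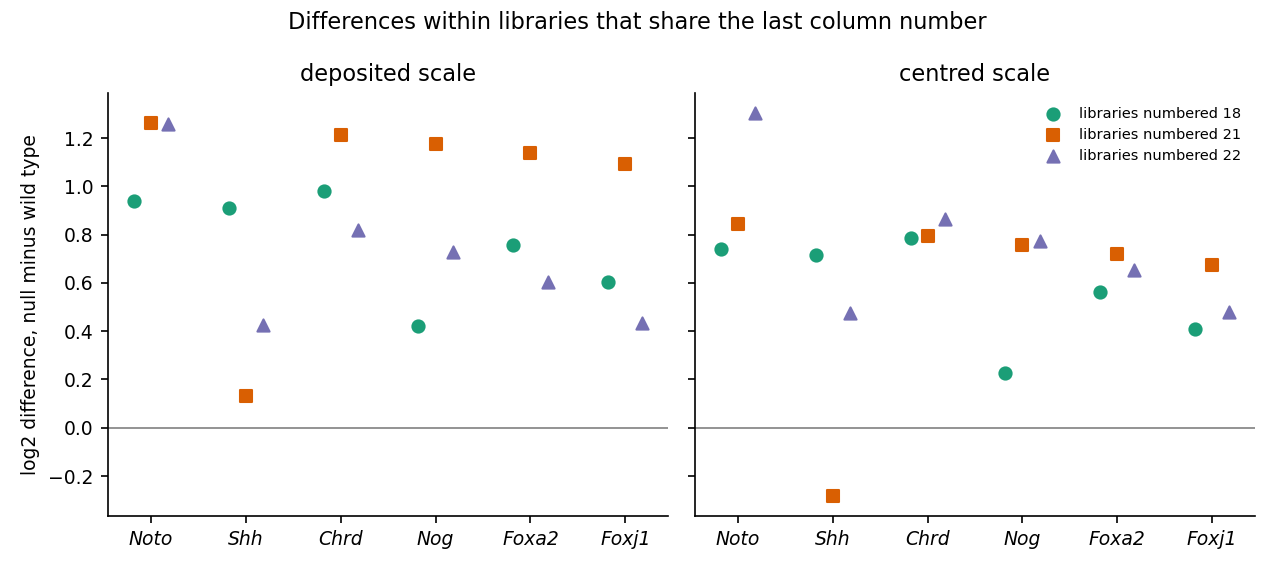
Log2 difference, null minus wild-type, of each gene between libraries whose column names end in the same number (18 circles, 21 squares, 22 triangles), as deposited (left) and centred (right). All 18 differences lie above 0 as deposited, and Shh within 21 is the only negative value after centring, at -0.28.

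The table listed all 24 other genes chosen as known from the notochord or node, of which 16 were past the filter, and limma called 0 of them over all genes on either scale. Their median log2 change was 0.15 as deposited and -0.05 after centring, close to the medians of all genes at 0.16 and -0.03, and 0.09 (centred -0.06) without wild-type library B. As deposited, 1 of the 16 lay higher in every null library, near the 7.02% of all genes that did. It was T, the T-box factor of tail bud and notochord, with 4765 to 6692 reads in null and 2059 to 4302 in wild-type libraries (log2 change 0.76, centred 0.57, limma adjusted p = 0.198). Foxa1, a forkhead relative of Foxa2 also made in endoderm, had 271 to 388 reads in null and 131 to 291 in wild-type libraries (0.80, centred 0.61, adjusted p = 0.245). The midline guidance gene Slit2 had 2011 to 2804 reads in null and 1713 to 2218 in wild-type libraries (0.36, centred 0.16, adjusted p = 0.31). Changes lay above 0 in 11 of the 16 genes as deposited and in 8 after centring, against 92.7% and 42.5% of all genes. The lowest was that of Ntn1, named after its values were seen (-0.63, centred -0.83, limma adjusted p = 0.509). Ntn1 had 512 to 1972 reads in null and 922 to 3718 in wild-type libraries. Genes of the node were mostly too low for the filter and are given by reads, with no test, chosen after their values were seen. The nodal antagonist gene Dand5 had 55, 69, 67 and 61 reads in null libraries A to D against 34, 19 and 40 in wild-type libraries A to C. Nodal had 33, 37, 14 and 74 against 19, 11 and 10 reads, and Lefty2, which encodes an inhibitor of Nodal, 35, 90, 43 and 159 against 52, 14 and 39. Of all 8 genes of this list below the filter, as deposited 1 lay higher in every null library, Dand5, and 0 lower. Cer1 leaned the other way, with 56, 2, 0 and 10 reads in null against 55, 27 and 0 in wild-type libraries. Lefty1, Gsc, Tdgf1 and Calca also overlapped between the groups. For genes below the filter the share over all such genes was not computed, so the count of 1 in 8 has no matching background.

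Foxj1 is known to control genes of motile cilia. The list chosen for it also held the flow sensor gene Pkd1l1 and its partner Pkd2. Of 28 genes chosen, the table listed 22 and 10 were past the filter, with 0 called by limma and a median change of 0.29 (centred 0.09), or 0.21 (centred 0.06) without wild-type library B. The exception in size was Pkd1l1, a polycystin of the node cilia that senses flow, with 333, 445, 164 and 382 reads in null libraries A to D against 157, 130 and 126 in wild-type libraries A to C. It was the 1 gene of the 10 that lay higher in every null library on both scales, against 7.02% of all genes as deposited and 6.51% after centring. Its log2 change was 1.20 (SE 0.29, limma adjusted p = 0.152), and 1.01 after centring (SE 0.29, adjusted p = 0.328). Its partner gene Pkd2 had a change of 0.29 (centred 0.09, adjusted p = 0.373), and Mlf1 0.35 (centred 0.15, adjusted p = 0.448). Rsph1, a radial spoke gene below the filter and named after its values were seen, had 55, 41, 50 and 85 reads in null against 22, 11 and 30 in wild-type libraries. Of the 12 cilia genes below the filter it was the 1 that lay higher in every null library. The others overlapped between the groups. The share of all genes below the filter was not computed, so this count has no matching background.

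Among genes of the hedgehog pathway and its targets, the table listed 26 of 28 and 21 were past the filter, with 0 called. Their median change was 0.08 (centred -0.11), and 0.25 (centred 0.10) without wild-type library B. The ligand gene Ihh lay higher in every null library on both scales. After centring Hhat was also higher in every null library, and Gli3 was lower in every null library, as 6.24% of all genes were; Hhat and Gli3 are named after their values were seen. Ihh had 160, 184, 167 and 135 reads in null libraries A to D against 69, 18 and 103 in wild-type libraries A to C (log2 change 1.69, centred 1.498, limma adjusted p = 0.187). Pax9, a marker of sclerotome and gut endoderm, had 193, 836, 647 and 753 reads in null against 264, 28 and 284 in wild-type libraries (2.07, centred 1.87, adjusted p = 0.255). Null library A was far below the other null libraries for Pax9 and within the wild-type range.

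Chrd and Nog restrain the BMP pathway, whose other genes were listed in the same way. The table listed all 33 and 29 were past the filter, with 0 called, a median change of 0.21 (centred 0.01), or 0.06 (centred -0.09) without wild-type library B, and 0 apart between the groups on either scale. The ligand gene Bmp7 had 1246 to 1611 reads in null and 710 to 1255 in wild-type libraries (log2 change 0.56, centred 0.37, limma adjusted p = 0.263). Bmper, which encodes a BMP-binding regulator, had 601 to 1094 against 60 to 634 reads, with the 60 in wild-type library B (1.62, centred 1.42, adjusted p = 0.286). The antagonist gene Grem1 had 279 to 539 against 363 to 1078 reads (-0.81, centred -1.005, adjusted p = 0.302).

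Markers of other cell types that the piece could hold moved with the 6 genes to different extents. Of the hindgut list the table held 22 of 24 genes and 18 were past the filter, with 0 called by limma and a median change of 0.63 (centred 0.44). Of these, 8 of 18 lay higher in every null library as deposited, against 7.02% of all genes, and 5 after centring, against 6.51%. The summed level of the hindgut list was 221.9 to 267.2 RPM in null and 133.3 to 221.7 RPM in wild-type libraries, a gap that was narrow and in which wild-type library B was lowest. The protease gene Tmprss2 had 1325 to 1553 reads in null and 336 to 962 in wild-type libraries (1.13, centred 0.94, limma adjusted p = 0.152), and Cdh1, which encodes E-cadherin, 1903 to 2432 against 756 to 1572 (0.81, centred 0.62, adjusted p = 0.18). Vil1, the villin gene of gut epithelium, had 171 to 453 against 19 to 154 reads (2.09, centred 1.90, adjusted p = 0.18). The summed level of the 6 notochord and node genes was 36.8 to 47.7 RPM in null and 20.8 to 27.6 RPM in wild-type libraries. The surface ectoderm list had 13 of 14 genes past the filter and a median change of 0.51 (centred 0.32). On each scale 1 of the 13 lay higher in every null library, near the share of all genes (7.02% as deposited, 6.51% after centring). The summed level of the list was 118.1 to 144.02 RPM in null and 63.1 to 123.9 RPM in wild-type libraries. Its genes of smallest p were Cldn3 (0.98, centred 0.79, adjusted p = 0.238), Grhl2 (0.77, centred 0.58, adjusted p = 0.255) and Esrp1 (0.71, centred 0.52, adjusted p = 0.262). With wild-type library B left out, the median was 0.41 (centred 0.26) for hindgut, 0.21 (centred 0.06) for surface ectoderm and 0.80 (centred 0.65) for the 6 notochord and node genes. The part of hindgut or ectoderm in the values of Foxa2 and Shh was not tested.

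Floor plate and neural markers, the other source of Shh and Foxa2 transcripts, had median changes below 0. The table held all 10 floor plate genes, 8 of them past the filter, with a median change of -0.06 (centred -0.26) (0.14 and -0.01 without wild-type library B) and a summed level of 173.3 to 216.02 RPM in null and 141.3 to 213.4 RPM in wild-type libraries. Of its defining genes Nkx2-2 had at most 8 reads in any library. Spon1, which encodes F-spondin, had 288 to 573 reads in null and 507 to 771 in wild-type libraries (-0.53, centred -0.72, limma adjusted p = 0.371), and after centring it lay lower in every null library, as did 6.24% of all genes. The floor plate list shares Foxa1, Slit2 and Ntn1, given above, with the notochord list, and Ntn1 had the lowest change of both lists. The neural tube list had 11 of 13 genes past the filter and a median change of -0.35 (centred -0.54), or 0.09 (centred -0.06) when wild-type library B was left out, with Irx3 at -0.55 (centred -0.75, adjusted p = 0.4), Nkx1-2 at -0.41 (centred -0.60, adjusted p = 0.424) and Sox3 at -0.63 (centred -0.82, adjusted p = 0.452), of which Nkx1-2 was lower in every null library after centring. Its summed level was 91.8 to 171.5 RPM in null and 106.6 to 197.5 RPM in wild-type libraries. The presomitic mesoderm list had 17 of 20 genes past the filter and a median change of 0.35 (centred 0.16), or 0.21 (centred 0.07) without wild-type library B. As deposited 5 of the 17 lay higher in every null library, against 7.02% of all genes. After centring 1 did, Cdx4, against 6.51% of all genes. Cdx4, an X-linked caudal factor, had a change of 0.63 (centred 0.44, adjusted p = 0.107), and the tail bud genes Fgf8 and Evx1 had 0.87 and 0.67 (centred 0.68 and 0.48, adjusted p = 0.272 and 0.278). The defining genes Tbx6, with 2211 to 3199 reads over all libraries, and Msgn1, with 375 to 1007, were present in all 7 libraries. The blood list had 9 of 10 genes past the filter and a median change of 0.03 (centred -0.16), or -0.24 (centred -0.38) without wild-type library B, with 0 apart between the groups and Alas2 and Gata1 at 0.47 and 0.41 (centred 0.28 and 0.22, adjusted p = 0.531 and 0.669). By limma 0 genes of the floor plate, surface ectoderm, neural, presomitic mesoderm and blood lists had an adjusted p under 0.05 on either scale.

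**Figure D5:**
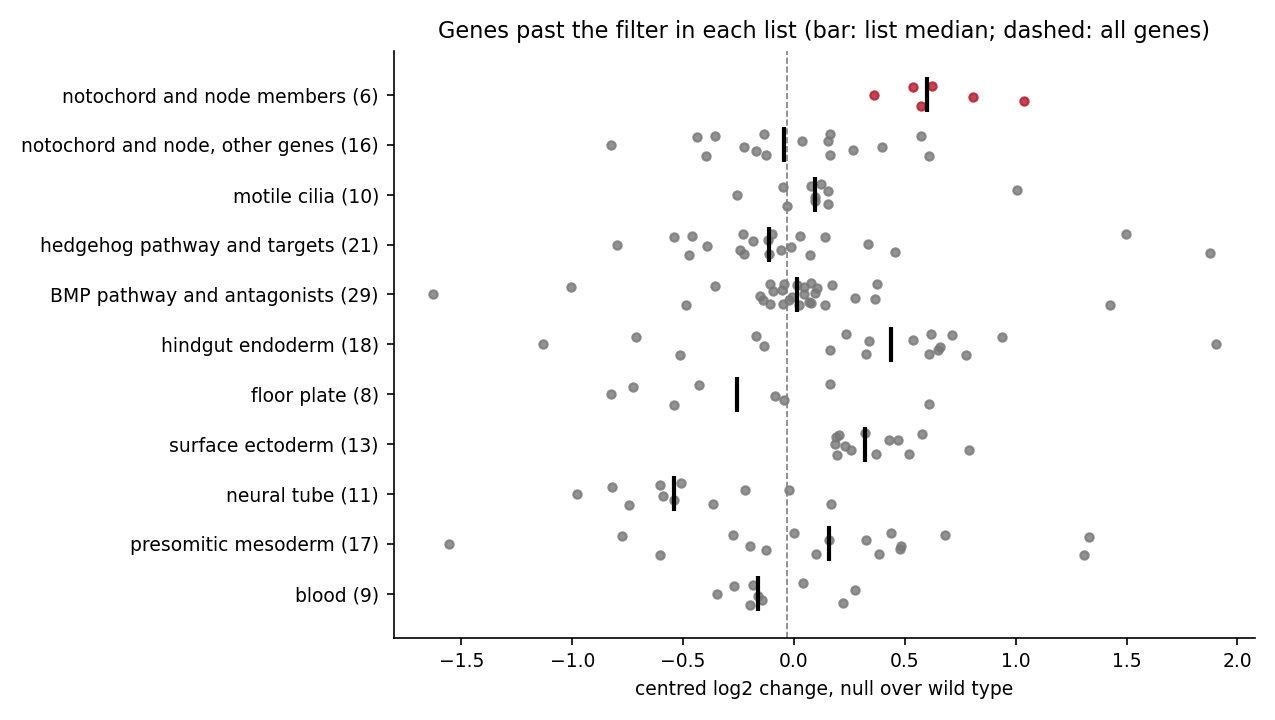
Centred log2 change, null over wild-type, of each gene past the filter (points) in the 6 notochord and node genes (red) and 10 other lists (grey), with the number of genes in brackets, a black bar for each list's median and a dashed line for the median of all genes at -0.03. The 6 genes have the highest median, 0.60, followed by hindgut endoderm at 0.44, and the other notochord and node genes are at -0.05.

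The genes whose centred pattern over the 7 libraries was most like the mean of the 6 are given as a description, with Pearson's r over libraries of both groups. Cxx1c and Gm14597, X-linked rows with nearly equal reads in every library (502 to 692 and 502 to 694 in null, 332 to 400 in wild-type), had r = 0.988 each, a log2 change of 0.68 (centred 0.48 and 0.49, limma adjusted p = 0.16 and 0.159) and cannot be told apart. Siae, which encodes a sialic acid esterase, had r = 0.988 and a log2 change of 0.67 (centred 0.48, limma adjusted p = 0.192). Thpo, which shares exon sequence with Chrd, had r = 0.986 and a change of 1.05 (centred 0.85, adjusted p = 0.18). AW555464 had r = 0.986 and a change of 0.71 (centred 0.52, adjusted p = 0.126). The X-linked Gpc4, which encodes a cell-surface heparan sulfate proteoglycan, had r = 0.984 and a change of 0.70 (centred 0.50, adjusted p = 0.107). The mean pattern itself was highest in null library B, at 0.54 above the average, then D at 0.37, C at 0.13 and A at 0.09, against -0.22, -0.43 and -0.48 in wild-type libraries C, A and B.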

How the data were processed

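The authors deposited log2 values per gene and library, per the file headers, for 25965 rows in 7 columns, and 0 per-sample columns were left unmapped. The submitters' processing notes name bcl2fastq, TopHat2 2.0.12, edgeR and mm10; which tool counted reads, with which strand setting and annotation, is not given in these sources. Every value below 1000 reads was a whole multiple of 1 read within 0.01, so reads were recovered; absent genes carry the value of 0.9 read. A count of 0 allows up to 3 reads, or 0.044 to 0.0507 RPM, for counting error only. The filter asked for log2 values over 0 in 3 or more libraries and left 13997 genes. limma 3.58.1 (R 4.3.3, trended prior, two-sided) compared the genotypes, and p-values were adjusted over these genes by Benjamini-Hochberg, with 0.05 as threshold. Centred values had the median of kept autosomal genes subtracted per library. Single values were compared by exact permutation over 35 splits. GENCODE M21 gave exon lengths; 99.6% of shared gene names overlapped the table's coordinates. The fit was tested on simulated data. Figures used Python 3.11.15 and matplotlib 3.10.9.

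The members and lists were chosen with earlier results of these data known. The rule for named genes gave all 6 members with Smchd1, from each of 10 lists the called genes or, where none was called, the 3 of smallest p, and the 6 genes of most similar pattern. Some genes that the rule gave are not reported here. Ratios between members, and on the centred scale the alternatives with no filter, the stricter filter, the pseudocount and the robust prior, were chosen after seeing the data. The other alternatives were other filters, a pseudocount of 1, cyclic loess, a robust prior, voom on recovered reads, the numbers in the column names as a term, and leaving out each library.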

Additional observations from a re-analysis of the deposited data

Results flagged for a closer look

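Each result here had 1 null library far from the other 3, by the gap to the nearest library over the range of the group of 4. Chance flags about 1 in 20 groups, and 2 of 6 members were flagged on the centred scale, 0 of 6 as deposited and 3 of 15 ratios. Of 35 other named genes, 3 were flagged as deposited and 4 on the centred scale. Groups of 3 wild-type libraries were not tested in this way.

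Noto in null library B had a centred log2 value of -0.88, against -1.72 to -1.64 in the other null libraries. Without that library the centred change of Noto was 0.84. Shh in null library D was at -0.90, against -0.25 to -0.14, and within the wild-type range. The same library set apart the log2 ratios of Chrd over Shh, at -0.071 against -1.24 to -1.04, and of Foxa2 over Shh, at -0.55 against -1.54 to -1.43. The ratio of Chrd over Nog was 0.98 in null library C, against 0.51 to 0.58.

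Among the other named genes, Pax9 in null library A had a deposited log2 value of 1.52, against 3.45 to 3.64, and a centred value of -2.53, against -0.74 to -0.47. Bmp7 in the same library had a centred value of 0.16, against 0.44 to 0.46. In null library C, Nkx1-2 had a deposited value of 3.79, against 4.83 to 4.90, and a centred value of -0.40, against 0.65 to 0.85. Sox3 in that library had a deposited value of 1.46, against 2.92 to 3.17, and a centred value of -2.73, against -1.18 to -0.88. The causes of these values were not tested.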

How the results depend on the processing

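No member passed limma's threshold in any of the 13 alternatives on the centred scale, and all centred changes stayed above 0 except that of Shh, which was -0.13 with the first column number as a term. On the deposited scale the changes of the 6 genes were above 0 in every alternative. The number of members called there, 0, became 4 with the last column number as a term (4.99% of all genes called higher), 2 with a robust prior (0.372%) and 2 under the stricter filter (0.283%), which dropped Foxj1. It was 0 to 4 when each library was left out: 4 without wild-type library A (Noto, Shh, Chrd and Foxa2, where 30.3% of all genes were also called higher), and 2, Noto and Chrd, when either wild-type library B (0.716% of all genes) or null library A (1.18%) was left out. Voom on recovered reads called 0 members.

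The median log2 change of the members, 0.79, became 0.60 on the centred scale, 0.50 with cyclic loess, 0.62 with a pseudocount of 1, 0.63 with voom and 1.13 with the first column number as a term, and 0.72 to 0.96 without each library. The centred median became 0.75 with the first column number and 0.44 with a pseudocount of 1. Over all genes, 6 calls became 19 with cyclic loess, 12 with a pseudocount of 1, 53 with a robust prior, 36 under the stricter filter, 742 with the last and 2 with the first column number, and 2 to 4220 without each library. The 8 centred calls became 0 with the first column number and 4 to 10 without each library. The causes were not tested.

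No paired analysis was possible because the columns carry no replicate number of the labels; the last column number, whose meaning is not given in the sources used here, was used as a term in its place. Fits with edgeR or DESeq2 were not run, since the deposited values are log2, and voom used median-ratio scaling in place of the planned one. Low levels limit what can be said of the node genes Nodal, Lefty1, Lefty2 and Dand5 and of the cilia gene Rsph1, which did not pass the filter.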
